A study of Drosophila melanogaster with 2 samples.

Results

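The fly gene al encodes Aristaless, a transcription factor with a paired-class homeodomain that is known from Drosophila melanogaster legs, antennae and wings, whose tips it patterns. ChIP-seq, the sequencing of DNA pulled down with a protein, was made on whole embryos aged 0 to 24 h of the strain al-GFP, in which al is fused to eGFP, with an antibody against GFP. Both biological replicates carry this fusion and form 1 group, so the data hold no contrast between groups and no test between groups was made. No library of untagged flies was analysed here, and whole embryos mix every embryonic cell type with no tissue label. The peaks described here are the Aristaless peaks that lie upstream of a single promoter. A peak qualified when its summit, the base of highest signal, lay within 500 bp of a protein-coding transcription start site (TSS) and upstream of the nearest one on that gene's strand. Summits with both divergent TSSs of a head-to-head gene pair within 500 bp were set apart, whether or not the summit lay between those starts. Between them, upstream of either gene is also upstream of the other. Of the 3822 peaks on the 7 chromosome arms, 1006 qualified (26.3%, 95% Wilson interval 24.9 to 27.7, which covers counting error over peaks only). Head-to-head promoters held 772 further peaks, 180 summits lay downstream of the nearest start, and 1864 lay over 500 bp from any. The 1006 peaks stood at 956 genes, or 6.84% of the 13968 protein-coding genes.

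Fly promoters fall into kinds that are told apart by short sequences near the start site. The DNA replication-related element (DRE), bound by the factor DREF, and the Ohler elements Motif 1, Motif 6 and Motif 7 mark promoters of broadly active genes, and Motif 1 is bound by M1BP. The boundary protein BEAF-32 binds pairs of CGATA sites, which overlap the DRE, while the GAGA factor binds GAGAG repeats and a TATA box just upstream of the start marks many promoters of regulated genes. Paired-class homeodomains bind the core TAATTA, and pairs of them bind dimers of its TAAT arm with 2 or 3 bases between. The searches ask which kind of promoter sequence an Aristaless peak sits on, and whether the homeodomain's own core is near the summit.

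The sequences around the following summits are given because the results turn on them. All are on dm6, read 5′ to 3′ on the strand of the nearest gene, from the release 6 genome sequence, and stop where an annotated UTR begins. The strongest peaks other than the ones left out for a UTR or their chromosome are represented by CG14100, Ugalt, PNPase and CG18549, and al is added because it is the tagged gene. Capitals mark the homeodomain core, the GAGA repeat and TATAAA, and also the 6-mer GGCGTA, which was picked out after the values were seen, on either strand.
CG14100 (chr3L:19590525-19590721, minus strand): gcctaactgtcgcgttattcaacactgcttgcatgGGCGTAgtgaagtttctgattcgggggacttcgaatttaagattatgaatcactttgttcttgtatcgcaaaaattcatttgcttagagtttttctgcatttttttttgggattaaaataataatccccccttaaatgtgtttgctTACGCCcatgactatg
Ugalt (chrX:2703853-2703988, minus strand): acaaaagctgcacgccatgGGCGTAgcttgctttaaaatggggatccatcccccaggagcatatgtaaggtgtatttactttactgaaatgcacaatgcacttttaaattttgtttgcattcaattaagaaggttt
PNPase (chr3R:31404605-31404652, minus strand): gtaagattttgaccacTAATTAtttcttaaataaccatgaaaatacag
CG18549 (chr3R:12449065-12449265, plus strand): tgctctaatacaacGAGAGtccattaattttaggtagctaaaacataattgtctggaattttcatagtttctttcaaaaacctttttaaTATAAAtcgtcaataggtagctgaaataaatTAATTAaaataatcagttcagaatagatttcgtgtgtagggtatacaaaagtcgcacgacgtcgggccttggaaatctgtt
al (chr2L:377709-377909, plus strand): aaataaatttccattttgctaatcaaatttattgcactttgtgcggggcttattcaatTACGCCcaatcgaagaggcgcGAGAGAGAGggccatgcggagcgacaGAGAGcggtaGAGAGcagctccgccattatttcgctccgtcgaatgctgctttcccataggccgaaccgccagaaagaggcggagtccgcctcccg
The strongest members holding a paired-class dimer were those of Acsf2 and E23, shown with the dimer in capitals.
Acsf2 (chr2L:5342514-5342574, minus strand): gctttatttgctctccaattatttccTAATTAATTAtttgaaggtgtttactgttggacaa
E23 (chr2L:3355131-3355191, minus strand): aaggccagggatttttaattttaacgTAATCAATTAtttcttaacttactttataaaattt
Members with a DRE carry the main sequence result, and 7 of them are shown with TATCGATA in capitals: Jwa has the strongest, PolA1 and Prp39 represent cell cycle and splicing genes, and 4 are ribosomal protein genes.
Jwa (chr2L:18705874-18705934, minus strand): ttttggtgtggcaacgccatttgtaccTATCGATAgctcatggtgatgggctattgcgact
PolA1 (chr3R:21671780-21671840, minus strand): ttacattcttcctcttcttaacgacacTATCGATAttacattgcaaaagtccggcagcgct
Prp39 (chr3R:28812040-28812100, plus strand): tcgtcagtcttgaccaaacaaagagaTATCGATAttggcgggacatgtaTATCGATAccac
RpS12 (chr3L:13023285-13023345, plus strand): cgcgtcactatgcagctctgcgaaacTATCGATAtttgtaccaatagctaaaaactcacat
RpL27 (chr3R:25685058-25685118, minus strand): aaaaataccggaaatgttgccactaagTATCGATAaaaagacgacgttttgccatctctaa
RpS10b (chrX:19597928-19597988, plus strand): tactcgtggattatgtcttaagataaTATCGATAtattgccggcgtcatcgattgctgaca
RpS6 (chrX:7901353-7901413, minus strand): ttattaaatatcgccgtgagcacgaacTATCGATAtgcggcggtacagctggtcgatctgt

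In the strongest of these windows no DRE was found, whereas in the last 6 the DRE lay close to the start of the gene. With upstream positions written as negative, the centre of the match was at -37 bp from the TSS at RpS12 and RpL27, at -52 bp at RpS6, at -60 bp at PolA1 and at -73 bp at RpS10b. PolA1 has a further match at -6.5 bp, outside the shown sequence. The shown sequence of Prp39 carries a pair of copies, of which that centred at -32 bp lies within 100 bp of the summit. At Jwa the match lay at -201 bp, farther from the start than the summit itself.

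The strongest Aristaless peaks at single promoters were found in both replicates with high signal. The signal is the authors' own enrichment value, with a scaling that the sources used here do not state, so values are set side by side only as levels within a list. CG14100, a gene known by its annotation number, carried the highest signal of the whole list, 2082.6, with 1127.8 in replicate 1 and 964.2 in replicate 2, and its summit lay 97 bp upstream (3L, 19590448 to 19590793). At mRpL41, for a protein of the large mitochondrial ribosomal subunit, the signal was 1914.9 with 1117.5 in replicate 1 and 799.2 in replicate 2, with the summit 131 bp upstream. Ugalt, for the transporter that carries UDP-galactose into the Golgi, had 1795.1 with 1079.0 and 728.3 in replicates 1 and 2 and a summit 36 bp upstream. These 3 had the highest signals of all members in the series' list. At eIF6, whose product matures the large ribosomal subunit, the signal was 1381.2, with 822.6 in replicate 1 and 568.3 in replicate 2. The eIF6 summit lay in an intron of another gene, 109 bp upstream of the eIF6 start.

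The other 8 of the 12 strongest members spanned signals of 786.4 to 1170.7. ph-p, for a subunit of Polycomb repressive complex 1, carried 1170.7, from 671 in replicate 1 and 505.9 in replicate 2, with its summit 497 bp upstream in an intron of its own gene. The neighbouring ph-d is a closely similar tandem copy of ph-p, so reads of this pair may be shared between them. PNPase, for the mitochondrial polynucleotide phosphorylase, carried 1169.5 (737.1 and 443.4 in replicates 1 and 2), and its window above holds TAATTA. Fkbp14, MFS10 and CG18549 followed with 970.9, 866.9 and 822.7, and MFS10 is named for the major facilitator family of transporters. The last were Atf3 (814.9), a basic leucine zipper factor, Sox14 (808.9), a Sox factor of the ecdysone response, and gish (786.4), a casein kinase. In all 12 the replicate 1 signal was above that of replicate 2.

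Over all members the median signal was 99.0 (quartiles 68.4 to 170.2), against 90.2 over all peaks, 87.5 over the peaks outside the class and 108 at head-to-head promoters. The median was 60.5 in replicate 1 and 41.6 in replicate 2, and the median ratio of replicate 1 to replicate 2 was 1.51 both here and over all peaks. Of the 100 strongest peaks of the list 40 were members, and of the 500 strongest 165. The replicates' values moved together across the 970 members with an entry in both ranked lists (Pearson's r 0.843 on log2 values, Spearman's rho 0.801), a description across peaks called from the same pair of libraries. A peak overlapping by at least 1 bp stood in the replicate 1 list for 778 members (77.3%), against 73% of all peaks, and in the replicate 2 list for 576 (57.3%), against 53.5%. Both lists held 519 members (51.6%), against 47.7%, and neither held 171. Of the 252 strongest members 250 were in both lists, and of the 252 weakest 6 were. A q value of the peak's own of at most 0.05 was met by 817 members (81.2%), against 75.4% of all peaks, and 857 (85.2%) were also in the conservative list, against 82.2%. For 15 members the replicate entry with the nearest summit was also that of a stronger peak, so their replicate values are not their own, and 13 of these are among the 15 members with signals under 20, a limit chosen after the values were seen. Without them the medians were 61.03 and 41.8 in replicates 1 and 2 and r was 0.855.

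**Figure D1:**
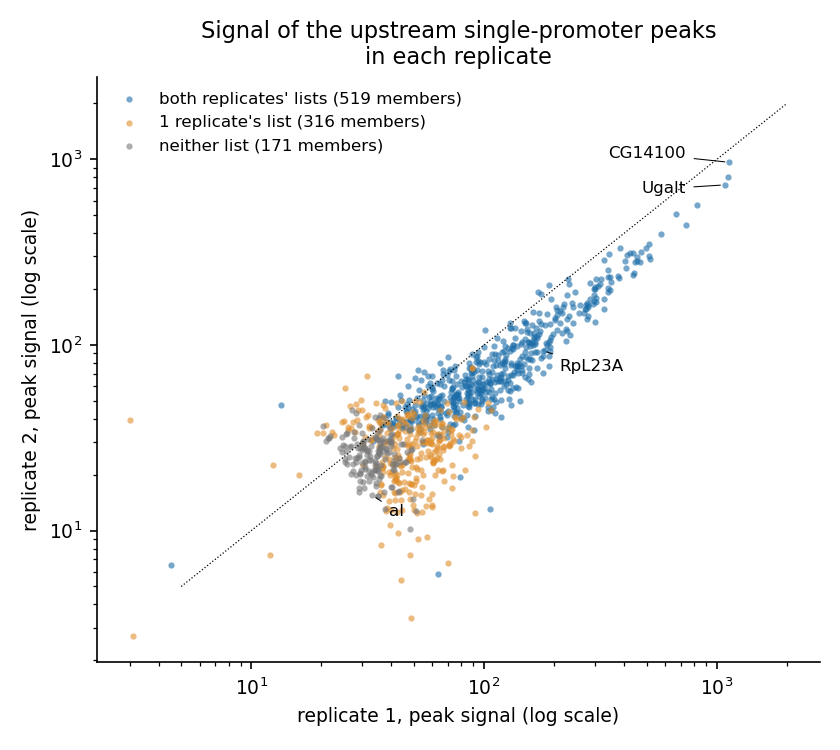
Signal of each upstream single-promoter peak in replicate 1 (x axis) and replicate 2 (y axis), both on log scales and taken from the entry with the nearest summit in that replicate's ranked list, with colours for the lists that hold the peak. The dotted line marks equal values. CG14100 stands at 1127.8 and 964.2, and al, found in neither replicate's own list, at 33.1 and 15.5.

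The rule places every member upstream and within 500 bp, so the distances below describe the spread inside that window. The median distance was 164 bp (quartiles 93 to 262), and it follows the window, at 117 bp with a limit of 250 bp and 210 bp with a limit of 1000 bp. Of the 1006 summits 501 (49.8%) lay 51 to 200 bp upstream. In the replicates' own lists, 834 peaks of replicate 1 and 579 of replicate 2 met the rule, with median distances of 168.5 and 174 bp, a mean of 171.2 ± 3.89 bp (SD, n = 2). Their share of each list was 28.0% and 27.7%. Members outnumbered single-promoter summits downstream of the start by 5.59 times in the series' list, 6.13 times in replicate 1 and 6.51 times in replicate 2. The window edge at 500 bp had no gap in it: SsRbeta (499 bp, signal 39.1) and Fim (498 bp, 72.1) stood just inside, and CG17896 (503 bp, 780.4) and Pcyt1 (504 bp, 56.8) just outside.

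Signal varied with the place of the summit. The median signal was 71.6 for the 122 summits 1 to 50 bp upstream, 96.0 for those at 51 to 100 bp, 109.5 at 101 to 150 bp and 128.9 at 151 to 200 bp. Farther out the median was 120.5 at 201 to 300 bp and 99.99 at 301 to 499 bp. The rule was also applied to each replicate's own list, with that list's own summits. In that of replicate 1 the lowest median was also at 1 to 50 bp, 53.7, and the highest at 151 to 200 bp, 90.2. In that of replicate 2 the lowest was 48.4 at 1 to 50 bp and the highest 72.9 at 201 to 300 bp. Members nearest the start were also found less widely, with 33.6% of them in both replicates' lists against 61.8% at 151 to 200 bp.

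**Figure D2:**
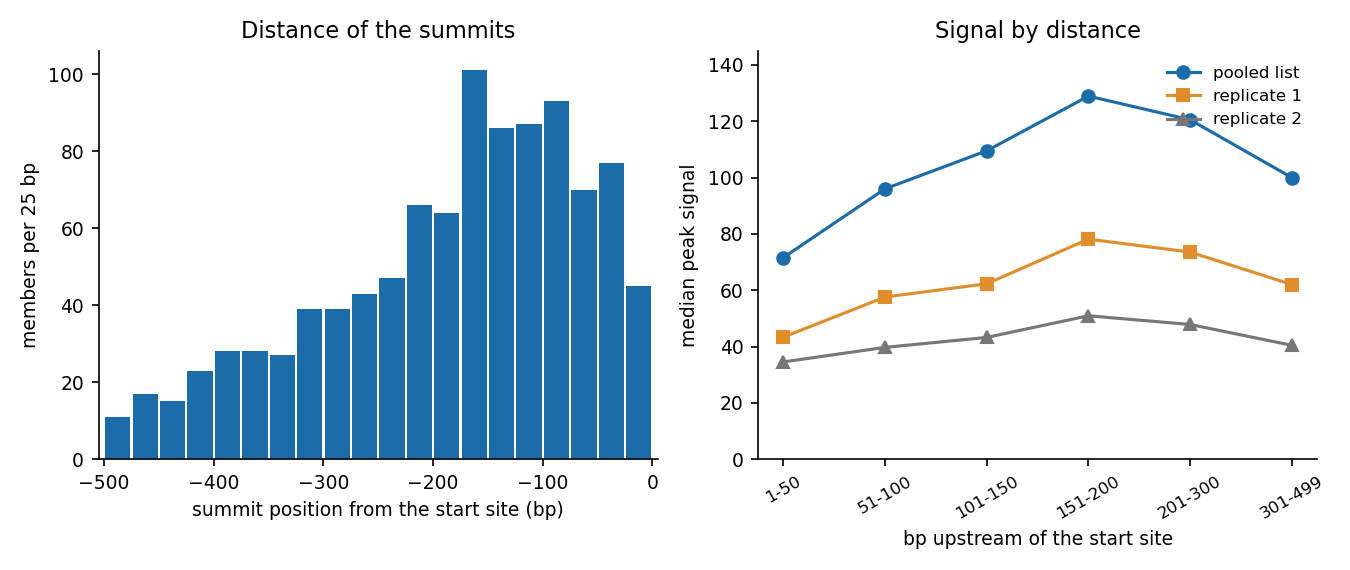
Left, the number of members per 25 bp of summit position, with the start site at 0. Right, the median signal of the members in 6 distance bins in the series' list and of the same members in each replicate, which is lowest at 1 to 50 bp in all 3 lines and highest at 151 to 200 bp.

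The DRE, the BEAF pair, Motif 1 and Motif 7 were more frequent at the peaks within 100 bp of the start than at those farther away. Each motif was searched on both strands within 100 bp of the summit, a window of 201 bp. Equal windows were laid at 9551 single promoters, with 1 start per protein-coding gene. The window centre had to be nearest to the gene's own start and not within 500 bp of both starts of a head-to-head pair. A DRE was found in 61 members (6.06%, interval 4.75 to 7.71), against 4.37% of all peaks. Motif 7 was found in 95 (9.44%), against 7.06% of all peaks, and the BEAF pair in 88 (8.75%), against 6.15%. Motif 1, searched as GGTCACACT, was in 24 (2.39%), against 1.41%. All peaks include the summits over 500 bp from any start. Head-to-head promoters held more than the members of Motif 7 (17.9%, interval 15.3 to 20.7), the BEAF pair (14.8%, 12.4 to 17.4) and the DRE (12.2%). For these 3 the intervals of members and of the peaks at head-to-head promoters do not overlap, and no test was made. Motif 1 was at 2.33% there. No windows were laid at head-to-head promoters in general, so the part of the promoter kind in these gaps was not tested. The BEAF pair was counted where CGATA sites, in either sense, had at most 20 bases between them. Motif 6 was in 5. In the own lists of replicates 1 and 2 the DRE was in 4.68% and 5.87% of the peaks that met the rule and Motif 1 in 1.92% and 1.04%. At least 1 of the DRE, Motif 1, Motif 7 and the BEAF pair, called core promoter elements here, was found in 191 members (19.0%), against 14.5% of all peaks and 6.25% of single promoters with windows centred 164 bp upstream, the members' median distance.

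The place of the window bears on that comparison, as 5.09% of single promoters held a DRE with the window centred 32 bp upstream and 0.838% with it centred 376 bp upstream. With the single-promoter windows centred at the members' median distance in each of 6 bins, and weighted as the members are, the DRE share of single promoters was 2.68% instead of 1.80%. The members' share was then 2.26 times that of single promoters instead of 3.37 times. For Motif 7 the ratio was 3.25 instead of 3.84, for the BEAF pair 2.35 instead of 3.94, and for Motif 1 1.93 instead of 3.86. The single promoters include the 851 genes at which a member stood.

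Within 50 bp of the start, a DRE was held by 22.9% of the 122 members (interval 16.4 to 31.2), against 5.09% of single promoters with the window at the same place. The BEAF pair was held by 32% (24.4 to 40.7) against 7.36%, and Motif 7 by 24.6% (17.8 to 32.9) against 4.47%. At 51 to 100 bp the shares were 11.0%, 15.3% and 19.0% for the DRE, the BEAF pair and Motif 7 in members. Beyond 200 bp the members' intervals took in the single-promoter value for all 3: at 201 to 300 bp the DRE was in 1.54% of members and 1.13% of single promoters. In both replicates' own lists the shares were also higher within 100 bp than beyond, though not always highest in the nearest bin. In that of replicate 1 the DRE share was 12% at 1 to 50 bp, 14.7% at 51 to 100 bp and 0.592% at 301 to 499 bp, and in that of replicate 2 it was 22.4%, 12.8% and 0.962%. Motif 7 was in 20% and 20.2% of the replicate 1 list's own peaks at 1 to 50 and 51 to 100 bp, and in 29.3% and 15.1% in replicate 2. The BEAF pair was in 22.7% and 17.8% in replicate 1 and in 17.2% and 20.9% in replicate 2, and Motif 1 in 4% and 7.75% in replicate 1 and in 3.45% and 4.65% in replicate 2.

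**Figure D3:**
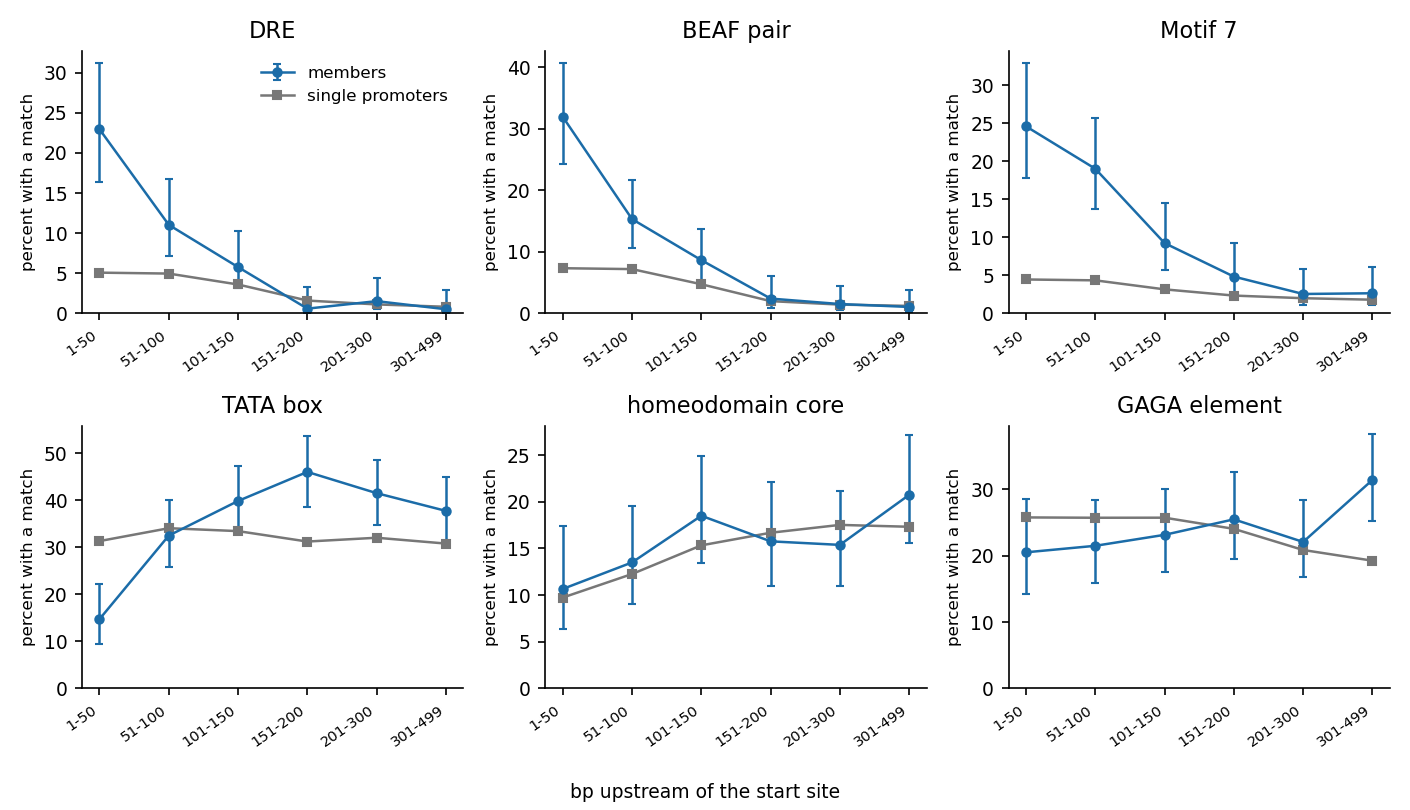
Percent of members (blue, with 95% Wilson intervals) and of 9551 single promoters with the window centred at the same distance (grey) that hold each motif, by distance of the summit from the start. For the DRE the members reach 22.9% at 1 to 50 bp against 5.09%, while for the homeodomain core the intervals take in the single-promoter value in every bin.

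DRE matches were more frequent near the summit and lay near the start. Of 66 DRE matches 27 (40.9%) had their centre within 25 bp of the summit, a stretch that makes up 25.4% of the window, and the median match lay at -47 bp from the start. BEAF pairs lay at a median of -33.5 bp from the start and had 34.0% of matches within 25 bp of the summit, while Motif 1 had 3 of 24 matches there. Motif 7 was found in the gene's sense on 79 of 108 matches (73.1%). Members with a DRE had a lower signal, 80.9 against 99.9 for the members without one, and were nearer the start, 60 against 169 bp. In the replicates the signals were 48.9 against 62.4 in replicate 1 and 33.2 against 41.9 in replicate 2. Distance and DRE move together here, and their separate part in the signal was not tested. The strongest members with a DRE were those of Jwa, with 404.6 (228 in replicate 1 and 186.9 in replicate 2), and Rme-8, for an endocytic J-domain protein, with 396.4 (190.2 and 211.7). Those with Motif 1 were Cnx99A, for the chaperone calnexin, with 220.5 (126.3 and 96.4), and Nhe3, for a sodium-proton exchanger, with 185.2 (122 and 60.1). Among the strongest 252 members 3.57% held a DRE, and among the weakest 252 7.94%.

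Motifs of other kinds followed a different course. TATAAA was found in 368 members (36.6%, interval 33.7 to 39.6), against 36.5% of all peaks and 32.2% of single promoters at the members' distances. It was in 14.8% of the members at 1 to 50 bp, against 31.4% of single promoters there, and in 46.1% at 151 to 200 bp, against 31.2%. These matches lay at a median of -197.5 bp from the start and so mostly outside the place of a TATA box. At that place, starting 20 to 40 bp upstream, TATAAA stood at 38 of 992 TSSs with a member (3.83%), against 902 of 9551 single promoters (9.44%). The letters TCAGT, an Initiator match, starting from 5 bp before to 2 bp after the TSS, were found at 13.9% of members' TSSs, against 10.9%. Members nearest the start were also richer in G and C, with a median of 42.3% at 1 to 50 bp and 32.3% at 301 to 499 bp, where single promoters had 41.3% and 37.3% with the window at the same distances.

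The share of peaks with the core of the homeodomain was within counting error of that of single promoters. TAATTA was found in 162 members (16.1%, interval 14.0 to 18.5), against 17.7% of all peaks, 16.6% of single promoters at 164 bp and 15.2% at the members' distances. The interval takes in all 3 values. In the replicates' own lists 17.9% and 15.9% of the peaks that met the rule held it, a mean of 16.9% ± 1.40 (SD, n = 2). Of 187 TAATTA matches 58 (31.0%) had their centre within 25 bp of the summit, a stretch that makes up 25.4% of the window. Within 50 bp lay 94 (50.3%), where the stretch makes up 50.25%. A paired-class dimer was found in 62 (6.16%, 4.84 to 7.82), against 5.81% of all peaks, 4.57% of single promoters at 164 bp and 3.96% at the members' distances. That interval lies above both single-promoter values and takes in that of all peaks. The strongest with a dimer were Acsf2, for an acyl-CoA synthetase, with 746.7 (451.9 in replicate 1 and 298 in replicate 2), and E23, for an ecdysone-induced ABC transporter, with 526.9 (303.6 and 225.9). Among the strongest 252 members 21.4% held TAATTA, against 13.1%, 16.3% and 13.5% in the successive sets of lower signal. Head-to-head promoters held TAATTA in 23.3% (20.5 to 26.4), above the interval of the members. No test of these differences was made.

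The GAGAG repeat was more frequent at the members than at the peaks of head-to-head promoters, with intervals that do not overlap and no test made. Head-to-head promoters in general were not searched. Whether this gap, or that in TAATTA, is one between the kinds of promoter was not tested. It was found in 244 members (24.3%, interval 21.7 to 27), against 20.7% of all peaks, 12.8% (10.6 to 15.4) at head-to-head promoters and 23.3% of single promoters at the members' distances. The DRE went the other way, at 6.06% of members against 12.2% at head-to-head promoters, and at 0.322% of summits over 500 bp from a start. GAGAG was in 31.4% of the members at 301 to 499 bp (25.2 to 38.3), against 19.2% of single promoters there. Within the members, GAGAG was found in 13.6% of those that hold a core promoter element, against 26.7% of those without. The same split was 15.01% against 21.72% over all peaks and 16.92% against 24.85% over single promoters. Of the 422 matches 17.3% lay within 25 bp of the summit, below the 25.4% that this stretch takes of the window.

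**Figure D4:**
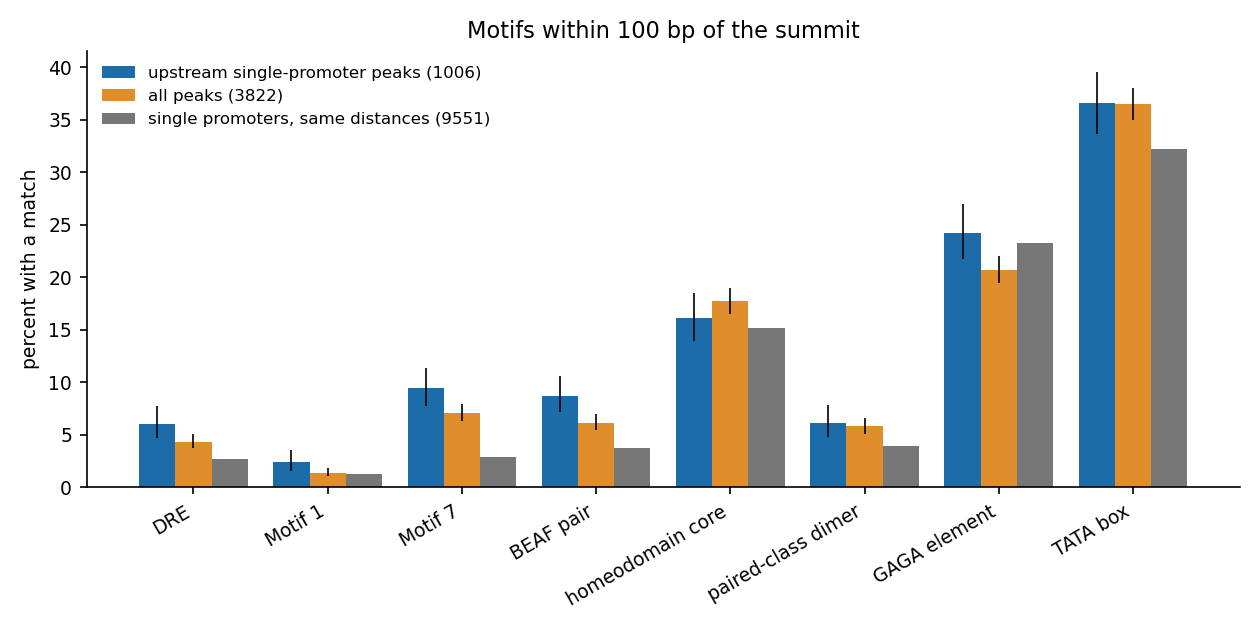
Percent of the 1006 members, all 3822 peaks and 9551 single promoters with windows at the members' distances that hold each motif, with 95% Wilson intervals for the peaks. The DRE is at 6.06%, 4.37% and 2.68%, while for the homeodomain core the values are 16.1%, 17.7% and 15.2%.

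A search over all 6-mers was led by CGATAG, which holds the CGATA site. Of the 1331 6-mers held by at least 5% of the members, CGATAG had the highest ratio, in 148 members (14.7%) and 6.16% of single promoters with the window at 164 bp. ACAGTG (18.0% and 8.09%) and ACACTG (17% and 7.89%), which are part of neither the DRE nor the CGATA site, followed. TATCGA (21.2% and 10.5%), a part of the DRE, came after them. The lowest was GGCCAA, in 5.96% of members and 11.1% of single promoters. These ratios were not matched for distance to the start, and the order at matched distances was not tested. For ATCGAT, the core of the DRE, the ratio was 1.81 with windows at 164 bp and 1.55 at the members' distances.

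Cytoplasmic ribosomal protein genes carried members more often than genes at large. Of 86 such genes 21 had one (24.4%, interval 16.6 to 34.5), against 6.84% of all protein-coding genes, and the count was 20 genes from the replicate 1 list (23.3%, against 5.59% of all genes) and 15 from the replicate 2 list (17.4%, against 3.97%). Of the 41 with a single promoter 19 had one, against 851 of all 9551 single-promoter genes (8.91%). The 22 members lay close to the start, at a median of 70 bp, with a median signal of 103.7. At RpL23A, a large-subunit protein gene, the signal was 272.3, with 178.8 in replicate 1 and 93.3 in replicate 2. RpL30 followed with 168.6 (101.6 and 63.1) and RpS28b with 153.6 (88.7 and 71.1). These were moderate levels, ranked 354, 815 and 933 of all peaks. A DRE was in 4 of the 22 members, at RpS10b, RpL27, RpS12 and RpS6, and RpS14b has a near-identical neighbouring copy, RpS14a, so its reads may be shared.

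The other lists had few members, and the rule sets apart peaks at head-to-head promoters. At 25 mitochondrial ribosomal protein genes (34.2%) stood a head-to-head peak, against 10.9% of all genes. Such shares were not particular to that list. They were 31.6% for insulator and promoter factors, 30.2% for vesicle trafficking and 29.1% for cytoplasmic ribosomal proteins. The lowest among the other lists named in this paragraph was 13.6%, for translation initiation factors. The patterning, homeobox, chemoreceptor and cuticle lists had 0. Vesicle trafficking had 8 of 96 genes, led by deltaCOP (239.1), a coatomer subunit, Syx4 (218.8), a membrane fusion SNARE, and Rab5 (181.8), a GTPase of early endosomes. Translation initiation factors had 4 of 44, with eIF3c (225.5) and eIF5B (143) below eIF6. DNA replication and cell cycle genes had 3 of 38: Dp (380.5), the partner of E2F, CycE (136.6), the S-phase cyclin, and PolA1 (102.4), the catalytic subunit of DNA polymerase alpha. Among genes of insulator and promoter factors 3 of 19 had a member, namely row (345.7), a zinc finger protein gene, BEAF-32 (141.1), the boundary protein gene named above, and psq (67.5), whose product binds GAGA sequences. Mediator and general transcription factors had 3 of 56, with the TFIID subunit genes Taf4 at 137.4 and Taf8 at 58.1 and the Mediator subunit gene MED4 at 92.1. Oxidative phosphorylation had 2 of 86 (ND-B17 of complex I with 127.5 and UQCR-14 of complex III with 63.4), and mitochondrial ribosomal proteins 1 of 73, the very strong mRpL41. The last count depends on the rule, at 6 with a limit of 250 bp, 3 with 1 TSS per gene, 2 from replicate 1 alone and 0 with a limit of 1000 bp, and oxidative phosphorylation had 4 with either of the first 2 settings and 1 from replicate 1 alone. The aminoacyl-tRNA synthetases, the proteasome and the splicing factors had 1 gene each (HisRS with 57.1, Rpn12 with 55.7 and Prp39 with 84.6). The splicing factors had 3 with a limit of 250 bp and 0 with a limit of 1000 bp. The synthetases and the proteasome had 2 each with a limit of 250 bp, and 0 at a q of at most 0.05 or from replicate 1 alone. For the synthetases the count was also 0 in the conservative list and with a limit of 1000 bp. Under the rule as stated the interval of each of these lists takes in 6.84%. Among single-promoter genes members stood at 7 of 40 in vesicle trafficking, 2 of 24 initiation factors, 2 of 22 cell cycle and 3 of 10 insulator genes. For Mediator it was 1 of 23, for oxidative phosphorylation 2 of 46 and for mitochondrial ribosomal proteins 1 of 18. The synthetases had 0 of 8, the proteasome 1 of 24 and the splicing factors 1 of 8, against 8.91% of all single-promoter genes.

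Genes of the appendage pathway in which Aristaless acts had members at a share within counting error of that of all genes. Of 35 genes of leg, antenna and wing patterning 3 had a member (8.57%, interval 2.96 to 22.4), against 6.84% of all protein-coding genes. The count was 1 from either replicate alone, in the conservative list, at a q of at most 0.05 and with a limit of 250 bp. Dll, the distal appendage selector, had a summit 118 bp upstream with 213.4, from 136.3 in replicate 1 and 76.8 in replicate 2. ptc, the Hedgehog receptor, had 54.98 (24.4 and 32.1), in neither replicate's own list. The list of paired-class homeobox genes also took in Poxm, which has a paired box but no homeobox. Of the 26 listed genes 2 had a member (7.69%, interval 2.14 to 24.1): Poxm (195.3, from 121.2 and 70.5) and al itself. That count was 1 from either replicate alone, in the conservative list and at a q of at most 0.05, and 0 with a limit of 250 bp. At a q of at most 0.05 the gene left was Poxm. The al peak lay 303 bp upstream of its start (2L, 377644 to 377973) with 50.6, rank 3496 of the list, from 33.1 in replicate 1 and 15.5 in replicate 2, and it stood in neither replicate's own list. Its sequence holds GAGAG repeats and no TAATTA. No chemoreceptor gene of 179 and no cuticle protein gene of 113 had a member, which allows shares of up to 1.68% and 2.65% (3 counts of each total, counting error only; the Wilson limits plotted are 2.10% and 3.29%), and the replicate 1 list held 1 cuticle gene.

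**Figure D5:**
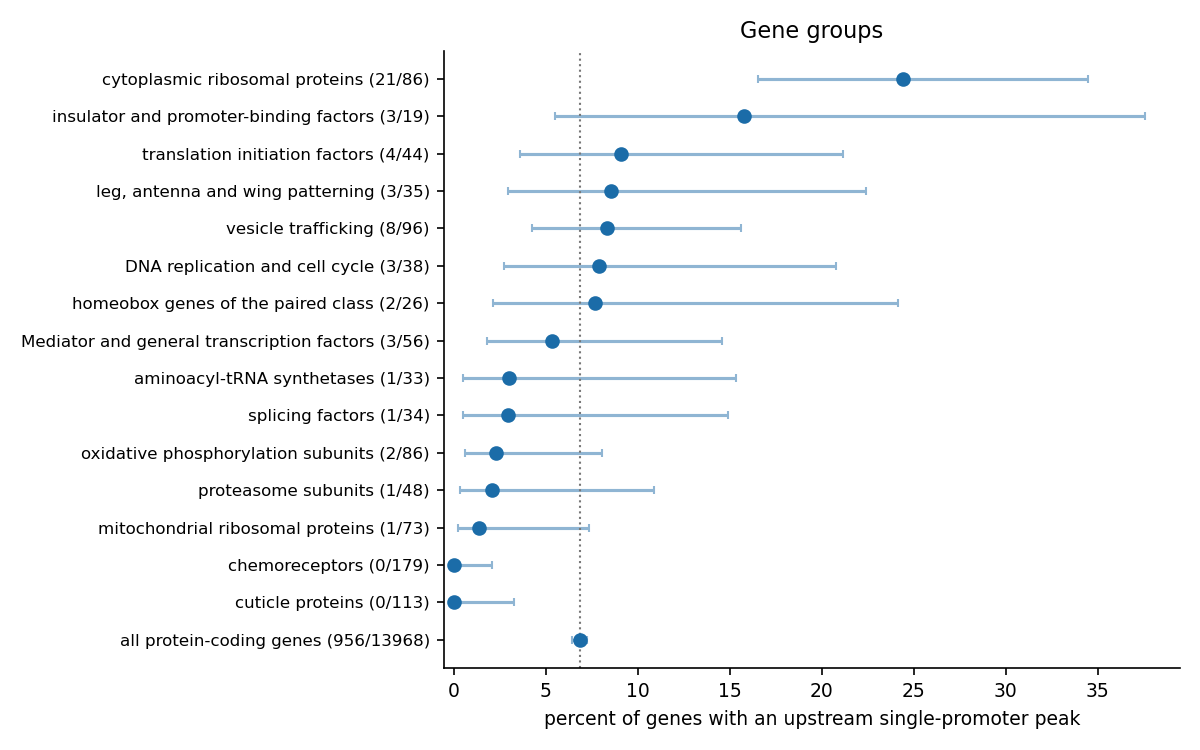
Percent of the genes of each list with an upstream single-promoter peak, with 95% Wilson intervals, and below them all 13968 protein-coding genes, whose 6.84% is the dotted line. Cytoplasmic ribosomal proteins stand at 24.4%, and the intervals of chemoreceptors and cuticle proteins end below the line.

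Some genes had several members. A single member stood at 914 genes, 37 genes had 2, and 5 had 3 or more. Of these 42 genes with several, 28 had them at different starts, and at the other 14 they lay upstream of 1 start. Rtnl1, for a reticulon that shapes the endoplasmic reticulum, had 5, with signals of 63.1 to 717.2, and mtd had 4. Moe, the cytoskeletal linker moesin, Ptpmeg2, a tyrosine phosphatase, and dnc, the cAMP phosphodiesterase of learning, had 3 each. At dnc the 3 peaks carried 265.9, 455 and 163.4 and lay 274 to 344 bp upstream of 3 different starts of the gene.

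The surroundings of the members varied. The summit lay between genes for 623 (61.9%), in the bound gene itself for 275 (27.3%, of which 241 in an intron, upstream of an inner start), and in another gene for 108. Between genes, the neighbour on the upstream side lay on the same strand for 400 and on the opposite strand for 223. Same-strand neighbours lay a median of 427.5 bp from the summit and opposite-strand ones a median of 1405 bp away, where the exclusion of head-to-head pairs fixes the lower limit of the opposite-strand distances. That exclusion also lowers the opposite-strand count. Within 500 bp lay 219 of the same-strand neighbours and 0 of the opposite-strand ones, so the counts of 400 and 223 show no preference. A start of a noncoding gene lay within 500 bp for 77 members (7.65%). These surroundings were described for the members alone, with no share of other peaks or promoters beside them. By arm, 207 members were on X and 2 on 4, and 8.70% of the genes of X had one, against 5.98% on 2L.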

How the data were processed

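The authors deposited peak lists on dm6, per the notes deposited with the samples; aligner, peak caller, versions and depth were not given in those sources. The lists hold each peak's signal as the authors' enrichment value, and the authors' −log10 q value, used at a q of 0.05. Of the deposited lists, 6 were used: thresholded and ranked lists of each replicate, and the series' thresholded and conservative lists. The other 2 ranked lists were not used, since their replicate columns carry no sample label; replicate signals come from the entry with the nearest summit in each replicate's own ranked list.

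Summits were set against Ensembl release 115 (BDGP6.54) TSSs and the release 6 genome, in which 30565 of 30618 annotated start codons read ATG. Shares have 95% Wilson intervals; no test was run, since 1 group of 2 replicates gives none. Alternatives were the conservative list, each replicate alone, a q of at most 0.05, other TSS sets, other windows and no peak near a stronger one. The steps were tested on simulated data. Named are the 12 strongest members, the 3 strongest per gene list, the 2 strongest per motif for 6 motifs, the 2 summits on each side of 500 bp, and al, with sequences for a part of them; other genes were chosen after their values were seen. The members, lists and motifs were chosen with earlier results of these data known. Python 3.11.15, numpy 2.4.6, pandas 2.3.3 and matplotlib 3.10.9 were used. A total of 8 listed symbols did not match the annotation and were left out.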

Additional observations from a re-analysis of the deposited data

How the results depend on the processing

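The alternatives were run on the members' own values, and the comparisons with all peaks, single promoters and all genes were not rerun. Of 103 values from 15 main results under 10 alternatives other than single replicates 71 stayed within the limits (1.5 times for counts, the Wilson interval for shares, the SD of the replicates' lists for medians). From replicate 2 or replicate 1 alone there were 579 and 834 members at 555 and 781 genes, 27.7% and 27.97% of peaks, with median distances of 174 and 168.5 bp, median signals of 61.76 and 71.62, a DRE in 5.872% and 4.676% and Motif 1 in 1.036% and 1.918%. With q at most 0.05 members were 28.37% of peaks, at a median of 168 bp and a signal of 117.1, with 87.39% and 67.93% in the replicate 1 and 2 lists. Of the conservative list's members 61.64% were in the replicate 2 list. With 1 TSS per gene they were 22% of peaks at 146 bp, with the DRE in 8.205%, Motif 7 in 11.89% and GAGAG in 21.17%. A 250 bp promoter window gave 117 bp, the DRE in 9.1%, Motif 7 in 14.02% and GAGAG in 19.67%, and a 1000 bp window gave 210 bp, 28.1% of peaks, the DRE in 4.562% and Motif 7 in 7.356%. With TSSs of any biotype 58.38% lay between genes. Motif windows of 50 and 250 bp from the summit gave 3.777% and 8.748% for the DRE, 0.8946% and 5.368% for Motif 1, 4.076% and 15.51% for Motif 7, 7.952% and 32.5% for TAATTA, 9.145% and 57.06% for GAGAG and 22.76% and 61.23% for TATAAA, as a shorter or longer stretch was searched. For the other settings the cause was not tested. Of 179 values of the 23 lesser results 132 stayed within the limits, and 24 of the 47 that moved were higher. No paired analysis was possible because there is 1 group. Depth is unknown, so signals have no interval, and with no untagged library the part of general promoter signal in these peaks was not tested.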

Other observations

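A 6-mer was more frequent in the strongest members than in the rest, and it was picked out because of that ratio, so it is a description with no test. GGCGTA was held by 13 of the 50 strongest members (26%, Wilson interval 15.9 to 39.6) and by 25 of the other 956 (2.62%), beside 3.67% of the 9551 single promoters. Outside the members the 50 strongest peaks held it in 18% and the rest in 4.7%. CG14100 and MFS10 have a pair of matches each and Ugalt has 1. The matches lay a median of 78.5 bp from the summit, and none of the 15 lay within 25 bp of it. Among the 13 genes are also elav, the neuronal RNA-binding protein gene with a signal of 581.2, Hsp27 (548.4), a small heat shock protein gene, moody (571.4), a receptor gene of the blood-brain barrier, and amon (612.2), a prohormone convertase gene. The weak al peak holds it too.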
